A study of Mus musculus with 11 samples.

Results

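Hepatocyte transcripts are described here in RNA from sorted hepatic sinusoidal endothelial cells (ECs) of the mouse. The group holds 34 of the 29307 genes listed in the count table and was set by name, as genes that hepatocytes are known to make in quantity. All 34 were found. The sorted ECs came from 6 conventionally raised (CONV-R) and 5 germ-free (GF) mice, all age-matched male C57BL/6J mice, with 1 library per mouse. CONV-R mice carry a normal specific pathogen-free microbiota, GF mice carry no microbes, and neither group had a transgene or a drug treatment. Liver cells were taken up on magnetic beads against CD146 and then sorted for CD31, CD105 and CD146, so each library is a bulk sample of a sorted population after amplification of its cDNA.

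Hepatocytes are the parenchymal cells of the liver. They secrete most plasma proteins, among them albumin, apolipoproteins, fibrinogen and protease inhibitors, and they hold the enzymes of the urea cycle, gluconeogenesis and drug oxidation. In the sinusoid they face the ECs across the space of Disse, separated from them by no continuous basement membrane. Their secretory and metabolic genes are driven by liver-enriched transcription factors such as HNF4 and members of the C/EBP family. In a bulk sample, fewer cells of a type and less RNA per cell cannot be told apart.

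The 11 libraries held between 7242717 and 16164588 counts. Between 15456 and 18495 genes had counts in 10 of them, whereas GF replicate 2 had counts for 22674 genes and stood apart. Markers of the labelled cell type were abundant. The 12 markers of liver sinusoidal ECs, led by *Stab2*, *Mrc1* and *Fcgr2b*, summed to between 35848 and 51009 CPM (counts scaled to a common library size by TMM normalization) in each library, and the 8 general endothelial and sorting markers, led by *Cdh5*, *Eng* and *Tek*, summed to between 6301 and 9614 CPM. Of these 20 genes, *Cd36*, a fatty acid receptor, was higher in GF ECs with a Log2FC of 0.84, and *Erg*, an endothelial transcription factor, was lower with a Log2FC of -0.68.

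Hepatocyte transcripts were scarce in the sorted ECs. Together, the 34 genes took 12112 of 124941684 counts, or 0.00969%. The share ran from 0.00582% (95% Wilson interval 0.00541 to 0.00626) in CONV-R replicate 4 to 0.0152% (0.0146 to 0.0158) in GF replicate 1. These intervals cover counting error only. In CPM the sum was lowest at 57.4, had a median of 94.7 and was highest at 126 in the 6 CONV-R libraries, with a mean of 90.5 ± 27.5 (SD). In the GF libraries it was 159 in replicate 1, 76.0 in replicate 2, 79.1 in replicate 4, 105 in replicate 5 and 93.0 in replicate 6, with a mean of 102.4 ± 33.6. The groups overlapped, and the highest sum of all belonged to a GF mouse and the lowest to a CONV-R mouse. With CPM taken from raw totals instead, the GF mean lay 7.51 above the CONV-R mean, less than the SD within either group, and without GF replicate 1 this difference was -5.36.

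**Figure D1:**
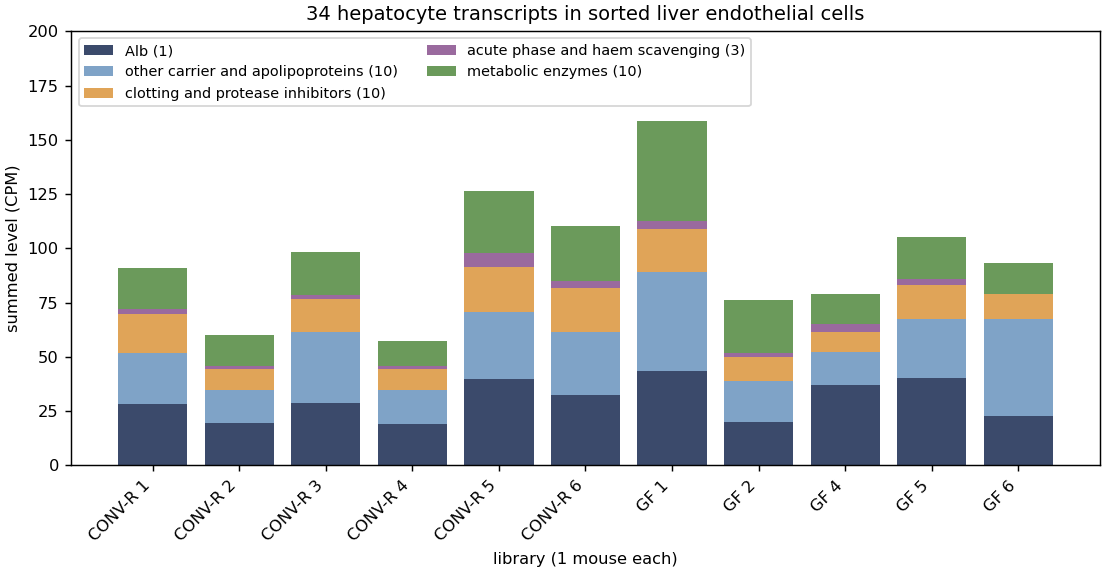
Summed level of the 34 hepatocyte transcripts (y axis, CPM) in each of the 11 libraries (x axis), with *Alb* and the groups of the other genes stacked and the number of genes in parentheses. The sums overlap between groups and run from 57.4 CPM in CONV-R replicate 4 to 159 CPM in GF replicate 1.

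The counts were spread unevenly over the genes. *Alb*, the gene of serum albumin, took 31.1% of the hepatocyte counts, and together with *Apob*, the structural protein of very-low-density lipoprotein, and *Tdo2*, which opens tryptophan breakdown, it took 47.6%. These 3 genes exceeded 5 CPM on average over the libraries. A further 19 genes lay between 1 and 5 CPM, with *Fabp1* highest at 4.89 CPM, and 12 lay under 1 CPM. Counts were found in every library for 24 of the 34 genes, and 10 genes were at 0 in at least 1 library. GF replicate 6 stood out in that 6 genes, *Apoc3*, *Apoh*, *Ahsg*, *Hpx*, *Hp* and *Cyp3a11*, were at 0 in it while it held the highest levels of *Ttr* and *Ambp*.

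Per kilobase of exon, which allows levels of different genes to be compared, *Alb* was highest at 12.8 ± 3.91 CPM per kb (SD, n = 11 libraries). *Fabp1*, the fatty acid binding protein of the hepatocyte cytosol, followed at 8.85 ± 4.11, so that the ranges of 1 SD around both means overlapped. Behind a gap came *Apoc1* (2.45 ± 1.28), *Ambp* (2.42 ± 3.82) and *Ttr* (2.17 ± 1.98), which differed from each other by less than their spread. *Apob* was second by count but had only 0.711 CPM per kb, since its transcript is long. *Cyp3a11*, a drug-oxidizing cytochrome P450, was lowest at 0.159 CPM per kb. Length here counts all exon bases of a gene's annotated transcripts, 5093 for *Cyp3a11*, whose longest coding transcript has 2344. Its rank therefore depends on the length used. The median over the 34 genes was 0.611 CPM per kb, against 550 for the sinusoidal EC markers, 125 for the general endothelial markers and 6.73 for the 14 Kupffer cell markers. It was close to the 0.530 of the 6 B cell markers and the 0.412 of the 8 cholangiocyte markers. Lists of red blood cells (1.90) and platelets (1.38) lay above it, and those of T and NK cells (0.163), neutrophils (0.0899) and hepatic stellate cells (0.0485) below it.

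**Figure D2:**
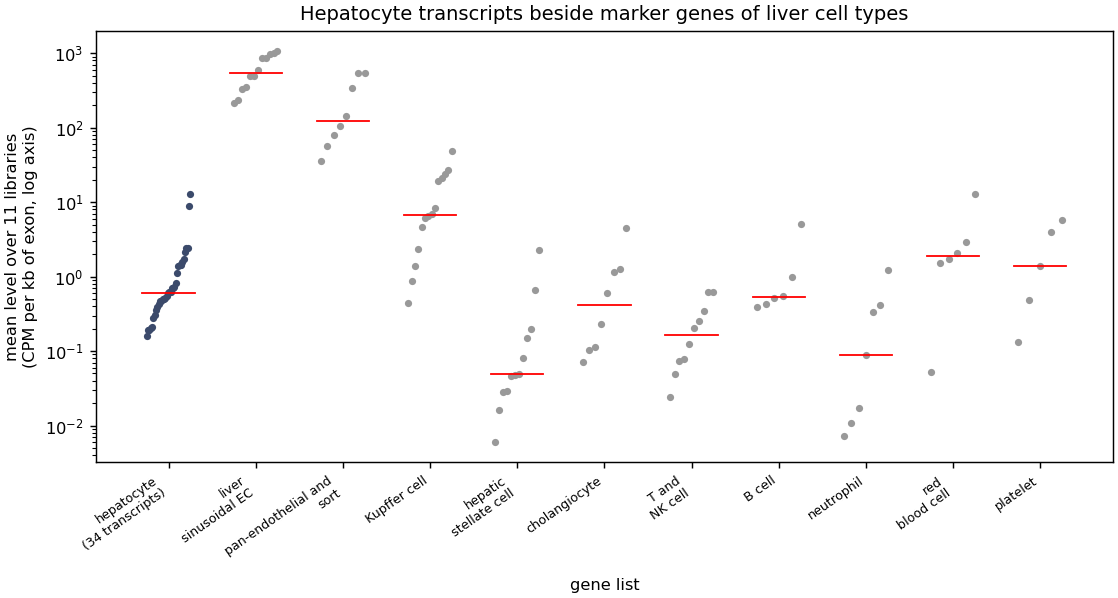
Mean level over the 11 libraries (y axis, CPM per kb of exon, log axis) of the 34 hepatocyte transcripts and of the markers of other liver cell types (x axis), with 1 point per gene and a red line at each list's median. The hepatocyte median of 0.611 lies far below the 550 of the sinusoidal EC markers.

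*Alb* lies on chromosome 5 of GRCm38 from 90460897 to 90476602. Its level was 18.8 CPM in the lowest, 28.5 in the median and 39.7 in the highest CONV-R library. In GF libraries it was 43.6, 19.8, 36.9, 40.4 and 22.5 CPM in replicates 1, 2, 4, 5 and 6. Low and high libraries occurred in both groups, and the Log2FC was 0.23 (standard error 0.23, edgeR adjusted p = 0.600). All edgeR values are from quasi-likelihood tests, adjusted by the Benjamini-Hochberg method across all genes of a fit, which were 12905 unless a fit with another filter or without a library is named. As a share of the hepatocyte counts, *Alb* lay between 29.2% and 32.9% in the CONV-R libraries and between 24.2% and 46.6% in the GF libraries.

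The upstream sequence of *Alb* is shown with those of *Fga* and *Fgb*, which encode the fibrinogen alpha and beta chains, because all 3 carry the liver motif searched and are among the best known hepatocyte promoters. Each run is the 250 bases before the RefSeq transcription start on GRCm38.p6, read 5′ to 3′ on the strand of the gene (*Alb*, chr5:90460620-90460869, plus strand; *Fga*, chr3:83025903-83026152, plus strand; *Fgb*, chr3:83049864-83050113, minus strand). Capitals mark matches, on either strand, to the C/EBP motif TTGCNNAA.
Alb: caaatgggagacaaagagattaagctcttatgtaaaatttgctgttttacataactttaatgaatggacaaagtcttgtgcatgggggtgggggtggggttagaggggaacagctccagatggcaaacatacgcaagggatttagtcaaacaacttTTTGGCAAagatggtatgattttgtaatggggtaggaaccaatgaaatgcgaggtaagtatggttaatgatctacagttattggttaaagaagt
Fga: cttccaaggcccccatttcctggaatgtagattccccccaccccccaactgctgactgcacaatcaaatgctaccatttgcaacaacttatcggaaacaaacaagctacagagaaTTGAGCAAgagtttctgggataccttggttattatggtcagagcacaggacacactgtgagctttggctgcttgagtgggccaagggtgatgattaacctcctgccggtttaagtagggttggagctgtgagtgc
Fgb: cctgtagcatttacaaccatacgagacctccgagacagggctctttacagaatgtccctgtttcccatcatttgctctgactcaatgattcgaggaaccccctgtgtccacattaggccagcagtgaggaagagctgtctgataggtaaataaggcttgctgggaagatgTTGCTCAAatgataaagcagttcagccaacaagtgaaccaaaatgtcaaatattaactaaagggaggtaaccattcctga

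RefSeq upstream sequences were found for 26 of the 34 genes. TTGCNNAA, on either strand, occurred in 10 of them (38.5%), which were *Ahsg*, *Alb*, *Apoa2*, *Apob*, *Fabp1*, *Fga*, *Fgb*, *Hpx*, *Rbp4* and *Serpina1b*, against 10.8% of 27025 genes. The TATA box motif TATAAA occurred in 9 (34.6%), against 14.3%. These matches describe letters and not sites in use. In the sorted ECs, *Hnf4a* was at 1.53 CPM, *Cebpa* at 9.30 CPM and *Foxa2*, another liver factor, at 0.126 CPM, as means of 11 libraries.

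To see whether hepatocyte transcripts differed with the colonization status, GF and CONV-R libraries were compared by edgeR's quasi-likelihood test. The paper reports fewer sorted ECs and less RNA on average from GF than from CONV-R livers. Effects of this yield and of colonization cannot be told apart in this comparison. Of the 34 genes, 26 had enough counts to be tested and 0 had an adjusted p under 0.05, whereas 7.48% of all 12905 tested genes did (4.80% higher and 2.67% lower in GF ECs). Unadjusted p was under 0.05 for 5 of the 26, namely *Apoc1*, *Itih3*, *Ambp*, *Ttr* and *Pck1*, and for 23.0% of all tested genes. DESeq2, with adjusted values for 33 of the 34 genes, and voom also called 0, with unadjusted p under 0.05 for 8 and 4 genes, beside 22.5% and 23.4% of all genes in those fits. Log2FC was above 0 for 13 genes and below 0 for 13. The median Log2FC was -0.0016, against -0.0061 over all tested genes, and leaving out 1 library at a time moved it between -0.16 and 0.26. Precision was limited, with a median standard error of 0.53 for these genes against 0.20 for all tested genes.

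**Figure D3:**
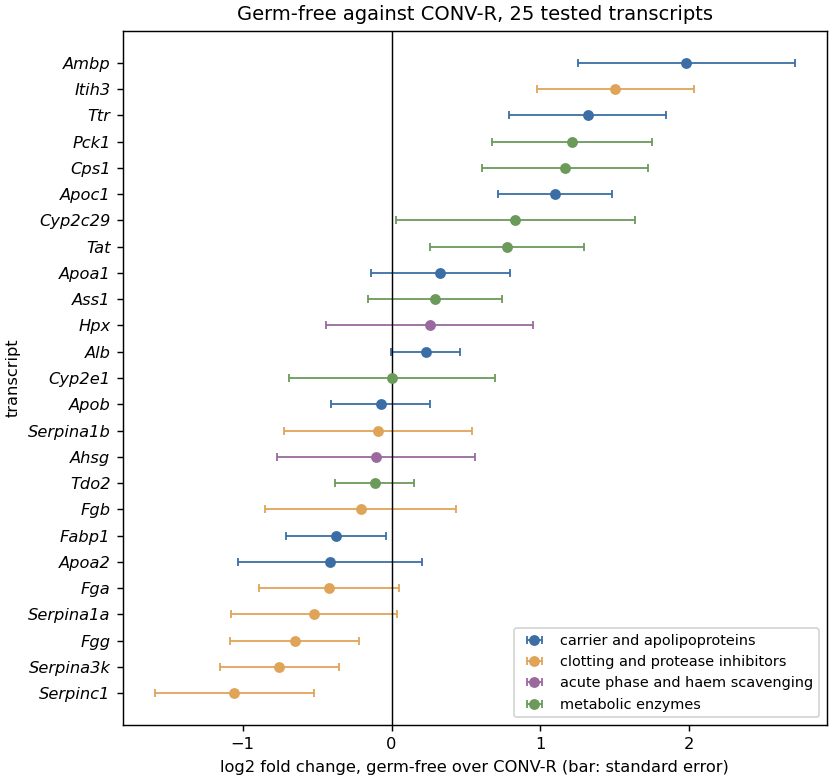
Log2FC of GF over CONV-R ECs (x axis, bars show the standard error) for 25 of the tested hepatocyte transcripts (y axis), coloured by role. Values run from -1.06 for *Serpinc1* to 1.98 for *Ambp*, and 0 genes passed an adjusted p of 0.05.

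Among the 11 carrier proteins and apolipoproteins, 8 were tested, with 5 Log2FC values above 0 and 3 below and a median of 0.28. *Apoc1*, an apolipoprotein of triglyceride-rich particles on chromosome 7 (19689481 to 19692660), was the only hepatocyte transcript whose groups did not overlap, which 5.59% of all tested genes also showed. It had 0.613, 1.26 and 1.70 CPM in the lowest, median and highest CONV-R library, and 2.47, 1.73, 2.85, 1.98 and 3.93 CPM in GF replicates 1, 2, 4, 5 and 6. Every GF library thus lay above every CONV-R library, the closest pair by a narrow margin. Its Log2FC was 1.10 (standard error 0.38), with an edgeR adjusted p of 0.0910, which ran from 0.0517 with DESeq2 to 0.223 without a count filter over the alternatives. Apolipoprotein C1 is also known from macrophages, and the summed Kupffer cell markers ran from 117 to 297 CPM in CONV-R and from 282 to 1211 CPM in GF libraries. Their part in this value was not tested.

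*Ambp*, the precursor of alpha-1-microglobulin and bikunin on chromosome 4 (63143275 to 63154799), had the largest Log2FC of the 26 at 1.98 (standard error 0.73, edgeR adjusted p = 0.110). It ranged from 0.614 to 2.32 CPM with a median of 1.398 in CONV-R libraries and was 8.17, 0.865, 0.666, 0.792 and 18.3 CPM in GF replicates 1, 2, 4, 5 and 6. GF replicates 1 and 6 were high, and the other GF libraries lay within the CONV-R range. Without GF replicate 6 its Log2FC was 0.91 (edgeR adjusted p = 0.480). When genes of low counts were kept in the fit, the adjusted p was 0.0183, the only call among the 34 genes under any alternative, beside 4.48% of 25329 genes called in that fit. *Ttr*, transthyretin, which carries thyroxine and retinol-binding protein, had 0.697, 1.07 and 3.14 CPM in the lowest, median and highest CONV-R library and 4.54, 2.21, 0.856, 2.90 and 8.67 CPM in the same order of GF replicates. The groups overlapped, its Log2FC was 1.32 (standard error 0.53, edgeR adjusted p = 0.142), and without GF replicate 6 it was 0.80.

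The other tested members of that group showed smaller values. *Apob* had 6.66, 10.98 and 14.6 CPM in the lowest, median and highest CONV-R library and 20.6, 7.02, 6.37, 9.37 and 4.47 CPM in GF replicates 1, 2, 4, 5 and 6. Both its highest and its lowest library were GF. *Apoa1* and *Apoa2*, the main proteins of high-density lipoprotein, had Log2FC values of 0.33 (standard error 0.47) and -0.41 (standard error 0.62). *Fabp1* ranged from 3.05 to 11.03 CPM in CONV-R and from 2.95 to 6.202 CPM in GF libraries. *Rbp4*, the retinol carrier, *Apoc3*, an inhibitor of lipoprotein lipase, and *Apoh*, a phospholipid-binding protein, had too few counts for the test.

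**Figure D4:**
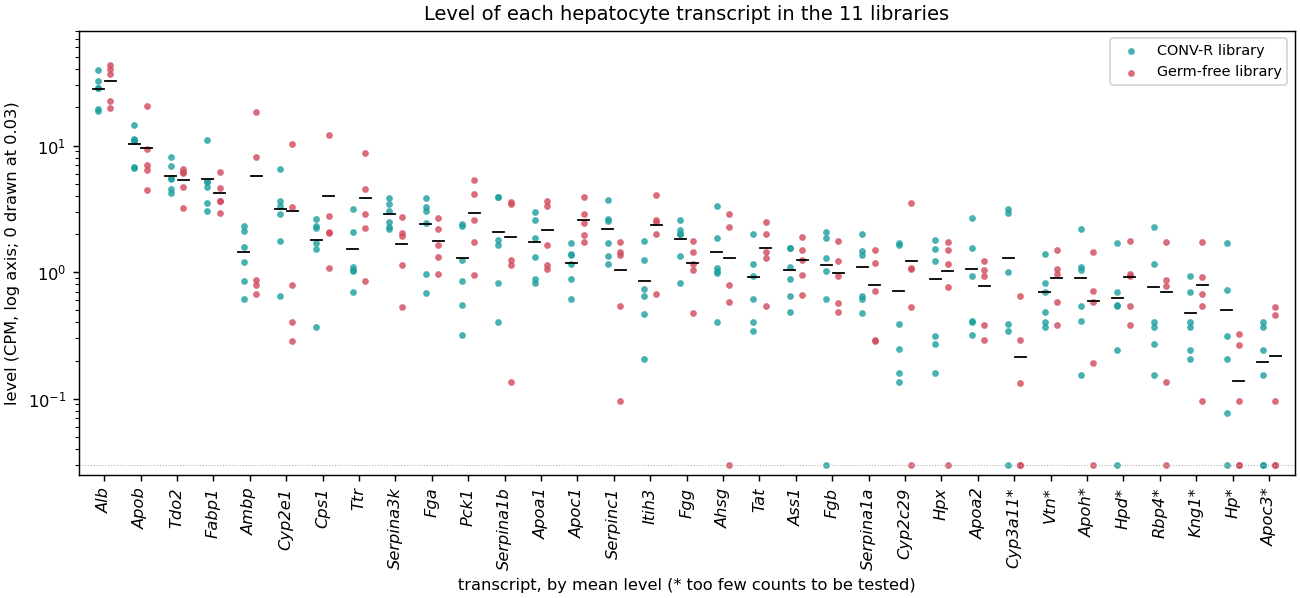
Level of 33 of the hepatocyte transcripts (y axis, CPM, log axis, with 0 drawn at 0.03) in the 6 CONV-R and 5 GF libraries, ordered by mean level (x axis), with bars at the group means. *Alb* is highest in every library, and *Ambp* and *Cps1* have 2 and 1 GF libraries far above the rest.

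Of the 10 clotting proteins and protease inhibitors, 8 were tested, with 1 Log2FC above 0 and 7 below and a median of -0.47. The fibrinogen chains *Fga*, *Fgb* and *Fgg* had values of -0.42, -0.21 and -0.65, with standard errors of 0.47, 0.64 and 0.43. *Fgg* had 2.01 CPM in the median CONV-R library and 1.15 CPM in the median GF library, and its groups overlapped. *Serpinc1*, which encodes antithrombin, had the lowest value of the 26, -1.06 (standard error 0.53, edgeR adjusted p = 0.246). Its reads cannot be assigned with certainty, since 58.8% of the 50-base windows of its longest coding transcript also lie in *Zbtb37* on the opposite strand and no strand setting is stated for the counting. *Serpina3k*, a serpin of the mouse antichymotrypsin cluster, ranged from 2.18 to 3.87 CPM in CONV-R and from 0.528 to 2.72 CPM in GF libraries, with a Log2FC of -0.75 (standard error 0.40). The alpha-1-antitrypsin genes *Serpina1a* and *Serpina1b* share 67.4% and 35.8% of their windows with each other and with further copies of the cluster, and had Log2FC values of -0.52 and -0.09.

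*Itih3*, a heavy chain that bikunin carries to hyaluronan, on chromosome 14 (30908572 to 30923760), was the only tested gene of the clotting and inhibitor group above 0. It had 0.205, 0.688 and 1.77 CPM in the lowest, median and highest CONV-R library. In GF replicates 1, 2, 4, 5 and 6 it had 4.09, 2.60, 2.00, 2.51 and 0.677 CPM. Apart from GF replicate 6, which lay near the CONV-R median, every GF library was above every CONV-R library. The Log2FC was 1.51 (standard error 0.53, edgeR adjusted p = 0.0935), and the adjusted p ran from 0.0567 to 0.251 with 1 library left out at a time. *Kng1*, kininogen, and *Vtn*, vitronectin, had too few counts for the test, and 17.95% of the windows of *Kng1* also lie in *Kng2*.

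The acute-phase and haem-binding proteins gave few counts. *Ahsg*, fetuin-A, a circulating inhibitor of mineral deposition, had 184 counts in all libraries and a Log2FC of -0.11 (standard error 0.66). *Hpx*, hemopexin, which binds free haem, had 118 counts and a Log2FC of 0.26 (standard error 0.70). *Hp*, haptoglobin, which binds free haemoglobin, had 46 counts, 38 in CONV-R and 8 in GF libraries, was at 0 in 3 libraries and was not tested.

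Of the 10 metabolic enzymes, 8 were tested, with 6 Log2FC values above 0 and 2 below and a median of 0.53. *Pck1*, which commits oxaloacetate to gluconeogenesis, had 0.321, 1.05 and 2.42 CPM in the lowest, median and highest CONV-R library and 5.38, 4.14, 2.57, 1.72 and 0.948 CPM in GF replicates 1, 2, 4, 5 and 6. GF replicates 1, 2 and 4 lay above all CONV-R libraries and GF replicate 6 below their median. The Log2FC was 1.21 (standard error 0.53, edgeR adjusted p = 0.183). *Tat*, which starts tyrosine breakdown, had a Log2FC of 0.78 (standard error 0.52).

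*Cps1*, the entry enzyme of the urea cycle, was far higher in 1 GF library than in any other. It ranged from 0.368 to 2.63 CPM in CONV-R libraries and was 12.1, 2.02, 2.09, 2.77 and 1.08 CPM in GF replicates 1, 2, 4, 5 and 6. Its Log2FC was 1.17 (standard error 0.56) and 0.13 without GF replicate 1. *Ass1*, a further urea cycle enzyme, had a Log2FC of 0.29, and 55.3% of the windows of *Ass1* also lie in *Gm5424*. *Tdo2* ranged from 3.23 to 8.06 CPM and had a Log2FC of -0.11 (standard error 0.26).

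The cytochromes P450, enzymes of drug and lipid oxidation, varied widely. *Cyp2e1* had 0.642, 3.10 and 6.53 CPM in the lowest, median and highest CONV-R library and 10.3, 3.27, 0.285, 0.792 and 0.406 CPM in GF replicates 1, 2, 4, 5 and 6. The GF libraries spanned a wider range than the CONV-R libraries on both sides. Its Log2FC was 0.01 (standard error 0.69) and -1.35 without GF replicate 1. *Cyp2c29* had a Log2FC of 0.83 (standard error 0.80), which was -0.12 without GF replicate 1. *Cyp3a11* had 86 counts in CONV-R and 14 in GF libraries, was at 0 in 3 libraries and, like *Hpd*, a tyrosine-breakdown enzyme, was not tested. Of its windows, 14.8% also lie in other *Cyp3a* genes.

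The 8 genes with too few counts for the test, *Rbp4*, *Apoc3*, *Apoh*, *Kng1*, *Vtn*, *Hp*, *Hpd* and *Cyp3a11*, had between 25 and 100 counts and means between 0.204 and 0.808 CPM. In the fit that kept them, their smallest edgeR adjusted p was 0.121, that of *Cyp3a11*. For all 34 genes the variance between libraries exceeded that of counting alone, with a median of 6.38 times and a highest value of 80.4 times, for *Ambp*.

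The hepatocyte transcripts were then compared with each other over the 11 libraries. GF replicate 1 and CONV-R replicate 5 each held the highest level of 8 of the 34 genes, and GF replicate 4 held the lowest level of 9. Over the 325 pairs of the 26 tested genes, Pearson's r of log2 CPM had a median of 0.28, and 77.2% of pairs were above 0. Centred on the group means, the median was 0.30, and within the 6 CONV-R libraries it was 0.48. Pairs of other genes of similar counts were not examined. These values share the library as their unit and are limited by counting error. Among the 6 genes with at least 10 counts in every library, the median r over 15 pairs was 0.38.

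**Figure D5:**
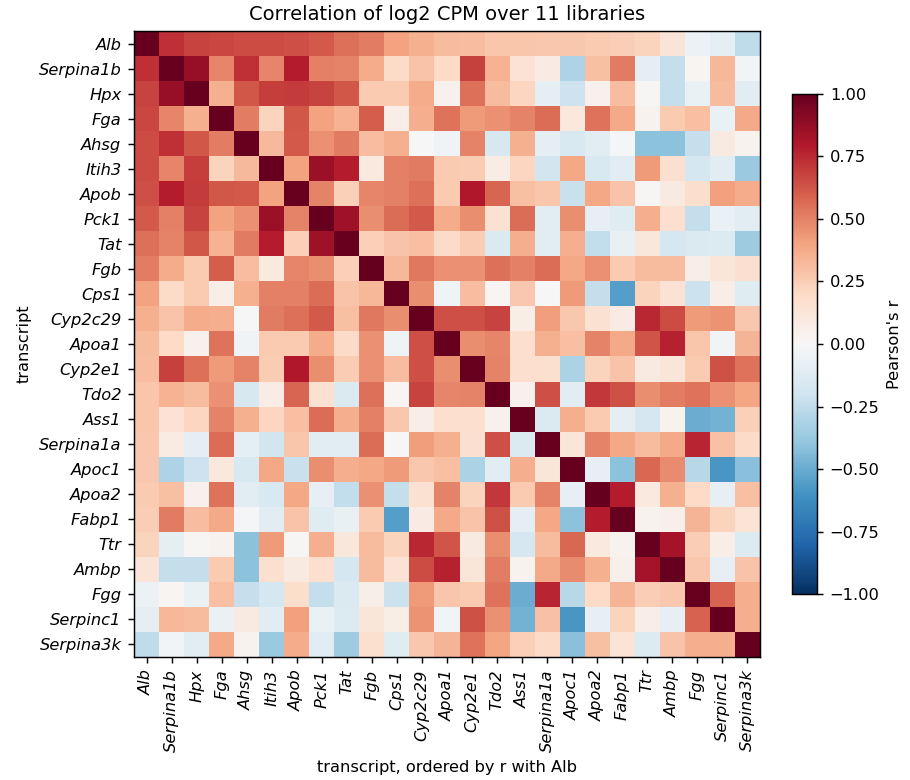
Pearson's r of log2 CPM over the 11 libraries between 25 of the tested hepatocyte transcripts, ordered on both axes by their r with *Alb* (colour scale from -1 to 1). Most pairs are above 0, with the highest r of 0.87 between *Serpina1b* and *Hpx*.

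The closest pairs joined genes of the same and of different roles. *Serpina1b* and *Hpx* had an r of 0.87, *Itih3* and *Pck1* 0.86, *Pck1* and *Tat* 0.84, *Ttr* and *Ambp* 0.83, and *Apob* and *Cyp2e1* 0.80. The lowest value was -0.59, between *Apoc1* and *Serpinc1*. The fibrinogen chains, whose products are assembled into 1 protein, were less alike, with r = 0.60 for *Fga* and *Fgb*, 0.30 for *Fga* and *Fgg* and 0.06 for *Fgb* and *Fgg*.

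With *Alb* as the reference, 22 of 25 genes had an r above 0, against 51.6% of all 12904 other tested genes, whose median r was 0.012. A permutation p under 0.05 was reached by 7 genes and by 0 after Benjamini-Hochberg adjustment over the 25 relations. The share of all tested genes that reach this permutation p was not computed. *Serpina1b* had r = 0.73 (permutation p = 0.0120, adjusted p = 0.142) and Spearman's rho = 0.71 (permutation p = 0.0182, adjusted p = 0.208), which became r = 0.63 without GF replicate 1 and CONV-R replicate 4, the libraries farthest from the median *Alb* level. *Hpx*, *Fga*, *Ahsg*, *Itih3* and *Apob* had r values of 0.68, 0.67, 0.65, 0.65 and 0.65, each with an adjusted permutation p of 0.142. *Pck1* had 0.61, which dropped to 0.33 without those libraries. Without GF replicate 2, 5 of the 25 relations passed the adjustment. Within the 6 CONV-R libraries the r was higher for every gene but *Cps1* (-0.13, against 0.40 over all libraries), as 0.94 for *Pck1*, 0.92 for *Tat* and 0.91 for *Cyp2e1*. *Apoc1*, *Ambp* and *Ttr* had r values with *Alb* of 0.27, 0.13 and 0.22 over all libraries and of 0.34, 0.73 and 0.69 within CONV-R. Outside the hepatocyte lists, the tested genes most like *Alb* over the 11 libraries were *2410006H16Rik* (r = 0.88), *Use1*, *Rps4x*, *Cxxc5*, *Cox7a2l*, *Rps15*, *Cog4*, *Isoc2b*, *Gm26811* and *Nxpe2* (r = 0.79), taken as the top of 12904 genes, and each had a higher r than any hepatocyte transcript.

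Further genes of hepatocytes were looked up in the same libraries. Of 162 such genes in the table, 5 had no counts, 109 were under 1 CPM and 11 exceeded 20 CPM. Of the 60 that could be tested, 4 were higher and 1 was lower in GF ECs (8.33% together, close to the 7.48% of all tested genes), and their median Log2FC was -0.04. *Glul*, glutamine synthetase, was higher with 108 CPM in CONV-R and 285 CPM in GF ECs and a Log2FC of 1.41 (standard error 0.19), *C4b*, a complement component, with 2.45 (standard error 0.59), *Lrg1*, an acute-phase glycoprotein, with 1.59 (standard error 0.43), and *Pigr*, the immunoglobulin A receptor of epithelia, with 3.03 (standard error 0.84). These sizes rested in part on single libraries, except that of *Glul*, whose Log2FC lay between 1.26 and 1.54 with 1 library left out. Without GF replicate 6 the Log2FC of *C4b* was 1.27 (edgeR adjusted p = 0.0967) and that of *Pigr* 1.76 (edgeR adjusted p = 0.203), and without GF replicate 1 that of *Lrg1* was 0.91 (edgeR adjusted p = 0.164). *Lrg1* also did not pass without CONV-R replicate 2, 3, 4, 5 or 6, and *Pigr* without GF replicate 1 or CONV-R replicate 1, 2, 4 or 5. *Glul* passed in each fit with 1 library left out, but the number of genes passing lay between 2 and 7. It was 2 without CONV-R replicate 4, CONV-R replicate 5 or GF replicate 6, and 3 without CONV-R replicate 2 or GF replicate 1.

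By list, 1 of 9 tested complement genes passed the test (*C4b*), with *Masp1* and *C5* among the most abundant. Of the tested clotting factors 0 of 3 passed (*F2*, *Serpind1* and *F5*), of acute-phase genes 1 of 2 (*Lrg1*, beside *Cp*), and of the apolipoprotein and lipid export genes 1 of 5 (with *Apoe* at 573 CPM and *Angptl8* at 17.7 CPM). Of further cytochromes P450 0 of 3 passed (*Cyp7b1*, *Cyp27a1* and *Cyp2f2*), and of amino acid and urea cycle enzymes 1 of 16 (*Glul*, with *Aass* at 342 CPM and *Oat* at 51.5 CPM). No call was made among the 5 tested genes of gluconeogenesis and fructose use (*Khk* and *Slc2a2* among the most abundant), the 4 transporters (*Slc10a1*, *Abcc2* and *Slc38a4* leading) or the 6 transcription factors (*Nr5a2*, *Cebpa* and *Prox1* leading). The major urinary proteins, made by hepatocytes of male mice in large amounts, summed to between 1.52 and 6.04 CPM in CONV-R and between 1.06 and 1.98 CPM in GF libraries, and *Mup3*, their only tested gene, had a Log2FC of -1.35 (standard error 0.56, edgeR adjusted p = 0.161). Windows shared among the major urinary protein genes were not searched, so the effect of shared reads on these sums is not known. Of the periportal list 1 of 9 tested genes passed (*Pigr*, beside *Asl*), and of the pericentral list 1 of 10 (*Glul*, beside *Rnase4* and *Oat*). Genes such as *Apoe*, *Aass*, *Glul*, *Nr5a2* and *Rnase4* exceeded *Alb* in CPM. Which cells the transcripts of these lists came from, including those of the called genes, was not tested.

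Of the non-parenchymal cell types looked up, Kupffer cells and cholangiocytes had markers that were higher in GF libraries. Of the 13 tested Kupffer cell markers, 9 were higher in GF libraries, among them *Clec4f* (Log2FC 1.55), *Csf1r* (1.85), *Cd163* (2.10) and *Adgre1* (1.97), and *Lyz2* (1.41) was among their most abundant. Their summed level ran from 117 to 297 CPM in CONV-R and from 282 to 1211 CPM in GF libraries and was highest in GF replicate 6. The number passing was 4 without GF replicate 6, 5 without CONV-R replicate 2, 4 or 5, and 8 to 10 without any other library. Of the 8 cholangiocyte markers, 3 were tested and *Spp1* (2.496) and *Tspan8* (2.81) were higher. The number passing was 1 with voom and without CONV-R replicate 4 or 6, 3 with DESeq2 and without GF replicate 4 or 5, and 5 of 8 without a count filter. The sum of these markers ran from 0.341 to 9.31 CPM in CONV-R and from 14.9 to 48.5 CPM in GF libraries, with the highest sums in GF replicates 6 and 1, the libraries with the highest *Ambp* and *Ttr*. *Tspan8* did not pass without GF replicate 6. All markers of both lists had counts in at least 1 library. The part of these cells in the values of *Apoc1*, *Ambp*, *Ttr*, *C4b* and *Pigr* was not tested.

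No call was made in the lists of stellate, T and NK, and B cells, neutrophils, red blood cells and platelets. The 12 stellate cell markers, of which *Rgs5*, *Lrat* and *Dcn* were tested, had sums between 5.61 and 31.5 CPM over both groups, and the 10 T and NK cell markers, 0 of them tested, at most 6.75 CPM. B cell markers (*Ighm*, *Pax5* and *Ms4a1* leading) summed to between 17.1 and 36.2 CPM in CONV-R and between 8.31 and 17.3 CPM in GF libraries. Neutrophil markers, of which *Csf3r* was tested, lay between 0.481 and 4.53 CPM, red blood cell markers (*Hbb-bs*, *Alas2* and *Hbb-bt* leading) between 4.88 and 36.1 CPM, and platelet markers (*Gp1ba*, *Ppbp* and *Itga2b* leading) between 15.8 and 28.9 CPM.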

How the data were processed

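Hepatic sinusoidal ECs of 6 CONV-R and 5 GF mice, grouped by the treatment label, were analysed. The authors deposited raw counts per gene, made by trimming with Trim Galore, STAR mapping to GRCm38 and featureCounts counting, after leaving out a further GF library for its low number of mapped reads. The annotation release and strand setting are not given in the sources used here. They also deposited log2 values normalized by the DESeq method, used here only as an alternative for correlations. Low cell viability made amplification of the cDNA necessary, so reads are not independent molecules. P-values measure the spread between mice.

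Counts were analysed in R 4.3.3 with edgeR 4.0.16 (filterByExpr, TMM, quasi-likelihood test, Benjamini-Hochberg adjustment over 12905 genes, threshold 0.05), with DESeq2 1.42.0 and voom of limma 3.58.1 as alternatives. Standard errors of Log2FC were derived from the edgeR test, as the absolute Log2FC divided by the square root of its F statistic. Log2 CPM had a prior count of 2, and correlations had 100000 permutations. Exon lengths, positions and shared windows of 50 bases came from GENCODE M21 and upstream sequences from RefSeq (GRCm38.p6). Further alternatives were DESeq2's size factors, no filter, at least 10 counts in every library, a block for the replicate number, and each library left out in turn. An unblocked fit of the block's libraries was added after seeing the data. The hepatocyte genes and all lists were chosen with earlier results of these data known. By rule, the text takes the 34 genes, the 3 tested genes of highest CPM and up to 4 called genes of each other list, the sort markers *Pecam1*, *Eng* and *Mcam* (with mean levels in the summed endothelial list), and the 10 genes most like *Alb*. Some genes that the rule takes are not reported here. Of the genes listed, *Cyp8b1* was not found in the table. Plots were drawn with matplotlib 3.10.9.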

Additional observations from a re-analysis of the deposited data

Results flagged for a closer look

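Of the 70 groups of libraries searched, each the levels of 1 gene or of a summed level in 1 group of mice, 2 held a library far from the others, where chance gives about 1 in 20. *Fabp1* was at 11.03 CPM in CONV-R replicate 3, against 5.24 CPM in the nearest CONV-R library. *Cps1* was at 12.07 CPM in GF replicate 1, against 2.771 CPM in the nearest GF library.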

How the results depend on the processing

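Of the 26 tested hepatocyte transcripts 0 passed, and under the alternatives 1, *Ambp*, passed, only without a filter (Log2FC 1.97, edgeR adjusted p = 0.0183). With 1 library left out at a time 0 passed in each fit. Other hepatocyte genes called numbered 5, against 3 with voom, 9 without a filter and 2 to 7 with 1 library left out. With 1 library left out, the median Log2FC lay between -0.16 and 0.26, the difference in summed CPM (raw totals) between -5.36 and 15.01, the median pairwise r between 0.22 and 0.36, and the number of genes correlated with *Alb* between 0 and 5.

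Log2FC of 8 hepatocyte transcripts changed sign. *Cyp2e1* was -0.044 with DESeq2, -0.59 with voom, -0.011 without a filter and -0.59 with the replicate block, and *Fgb* was 0.38 with voom. *Apoa2* and *Serpina1b* were 0.12 and 0.16 with the replicate block, and 0.075 and 0.18 in the same libraries without it. With 1 library left out, Log2FC ran from -0.61 to 0.075 for *Apoa2*, -0.58 to 0.10 for *Apob*, -0.55 to 0.049 for *Fgb*, -0.47 to 0.20 for *Serpina1b*, -0.57 to 0.32 for *Ahsg*, -0.20 to 0.024 for *Tdo2*, -1.35 to 0.35 for *Cyp2e1* and -0.12 to 1.15 for *Cyp2c29*. The cause was not tested. Same-numbered libraries share only a number (r of their deviations from -0.014 to 0.20), and with the replicate block 0 hepatocyte transcripts passed, while all genes called numbered 1101 against 931 in the same libraries without it. Depth limits genes under 1 CPM.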
